A study of Saccharomyces cerevisiae with 14 samples.

Results

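The cytosolic ribosomal protein (RP) genes of Saccharomyces cerevisiae were followed as 1 group in a comparison of an artemisinic acid producer with its non-producing control. They were chosen as the open reading frames (ORFs) whose standard name starts with RPL or RPS and a digit. Of 132 such names in the yeast annotation, 125 had a row among the 6040 ORFs of the deposited table, 71 of them for the large (60S) and 54 for the small (40S) subunit. RPL22B, RPL29, RPL31B, RPL36B, RPL41B, RPS14A and RPS19A were not analysed here. The 121 RP genes with values on at least 3 slides of each time point entered the tests, 68 of the large and 53 of the small subunit, and 118 had a value on every slide. RPL16B, RPL40A, RPL43B and RPS30A did not reach that minimum and are given apart.

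The producer, EPY330, carries the plasmid pESC-Leu2d::ADS/AMO/CPR with amorphadiene synthase, the P450 enzyme AMO and its reductase. The control, EPY338, carries the same plasmid with an inactivated AMO (ADS/AMO-KO/CPR), so that only EPY330 oxidizes amorphadiene to artemisinic acid. Both strains derive from EPY300 (MATalpha, his3 and leu2 deleted, with the truncated HMG-CoA reductase, upc2-1 and ERG20 under the GAL1 promoter and ERG9 under the MET3 promoter) with LYS2 and URA3 repaired, and both were grown in the same rich galactose medium, in which the GAL1 promoter is active. Whether plasmid content and induction were equal in both strains was not tested. RNA was taken at 24, 48 and 72 h after induction, and 4, 5 and 5 two-colour slides (replicates A to D at 24 h, A to E later) were hybridised at these times.

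On all slides of a time point the RNA of each strain was 1 pool from 5 transformants. The spread between slides is therefore technical, p-values measure that spread only, and the 5 transformants of a strain do not show their own variation. EPY338 was always in the Alexa647 channel and EPY330 in the Alexa555 channel, with no dye swap, so a dye effect particular to a gene cannot be told apart from a strain difference at 1 time point, whereas a constant one drops out of a difference between time points. Values are log2(EPY330/EPY338), turned so that a positive value means more of the transcript in EPY330. A ratio does not say in which of the strains a transcript changed, and spot intensities were not used here. A paralog pair shares much of its sequence, and how far the spotted DNA of one gene also caught the transcript of the other was not tested.

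Ribosomal proteins are made in amounts that match each other and the ribosomal RNA, and in growing yeast their mRNAs are among the most abundant. Their transcription is driven by Rap1, Fhl1 and Ifh1 and by Sfp1, follows nutrient signals through TOR and protein kinase A, and falls in many stresses and as cells leave exponential growth. Most cytosolic ribosomal proteins of yeast are encoded by an A and a B gene, a remnant of the duplication of the whole genome, whose products are identical or nearly so.

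As a check of the direction, PDR5, a drug efflux pump, was higher in EPY330 on every slide, with log2 ratios of 1.43 to 3.54. Over the ORFs outside the RP group, the 72 h slides fell apart: replicates A, B and C correlated with each other at r of 0.71 to 0.77 and D with E at 0.78, whereas D and E correlated with A, B and C at 0.45 to 0.67 and with the 24 h slides at 0.51 to 0.71. Replicates A, B and C of 72 h correlated with the 24 h slides at 0.01 to 0.46. At 48 h, replicates C, D and E correlated with each other at 0.81 to 0.85 and with A and B at 0.36 to 0.61, and A correlated with B at 0.59. At 24 h, B correlated with D at 0.88 and A with C at 0.77, and B and D with A and C at 0.68 to 0.75. The 24 h slides were not divided. The RP median and the counts of called RP genes are therefore also given from each part of the 72 h and the 48 h slides alone, a division made after the data were seen, whereas the counts of smaller groups come from all slides.

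The RP mRNAs were more abundant in EPY330 at 24 and 48 h, and the median excess was gone by 72 h. The median log2 ratio of the 121 genes was 0.52 ± 0.15 (SD between the medians of 4 slides) at 24 h, had a value of 0.58 ± 0.20 (5 slides) by 48 h and stood at -0.21 ± 0.27 (5 slides) by 72 h. The medians of all 5652 ORFs tested were -0.01, -0.02 and -0.02. At 24 h the middle of the RP genes (lower to upper quartile) ran from 0.16 to 0.84, at 48 h from 0.24 to 0.92 and at 72 h from -0.45 to 0.09.

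The RP median was 0.30, 0.59, 0.39 and 0.62 on the 4 slides of 24 h, and 0.36, 0.35, 0.74, 0.75 and 0.69 on the 5 slides of 48 h. It was -0.38, -0.26 and -0.40 on replicates A, B and C of 72 h and 0.04 and 0.20 on D and E. All 9 early slides thus stood above all 5 slides of 72 h, but the sign at 72 h differed between slides. From replicates A to C alone the 72 h median was -0.33, and from D and E alone 0.08. The 48 h median was 0.33 from replicates A and B and 0.74 from C, D and E.

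**Figure D1:**
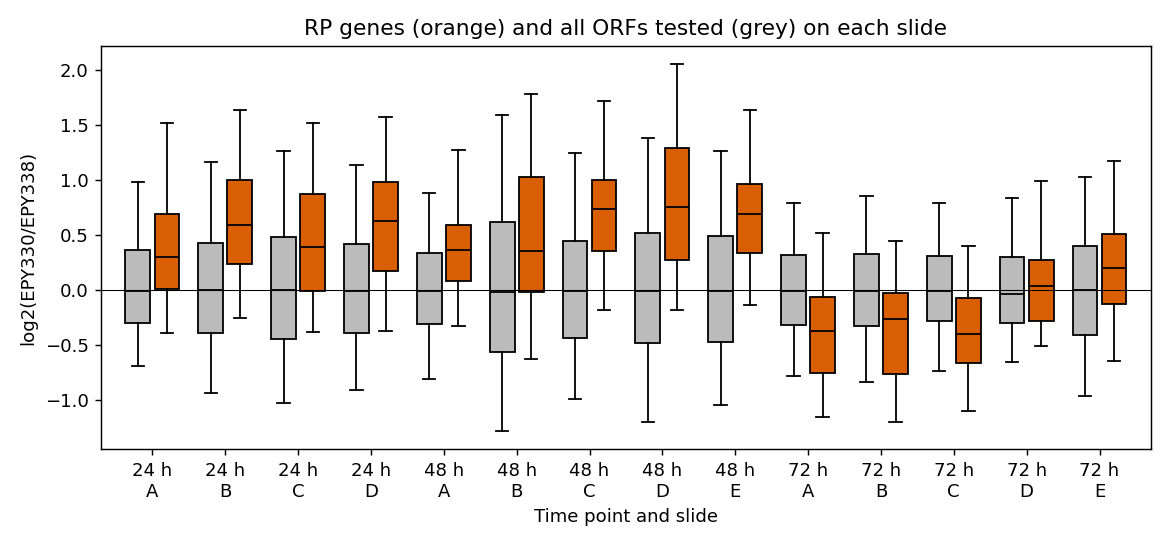
Log2(EPY330/EPY338) of the 121 RP genes (orange) and of all 5652 ORFs tested (grey) on each of the 14 slides; boxes span the quartiles, the line is the median and the whiskers reach the 5th and 95th percentiles. The RP medians lie above the grey medians on all 24 h and 48 h slides, below them on 72 h replicates A, B and C, and close to them on D and E.

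Single genes were tested with limma in 1 fit over all slides, with p-values adjusted over all 5652 ORFs, and called at an adjusted p under 0.05. At 24 h, 64 of the 121 RP genes (52.9%) were higher in EPY330 and 5 (4.13%) lower, where 21.7% of all ORFs were called higher and 20.2% lower. At 48 h, 81 (66.9%) were higher and 1 (0.83%) lower, against 25.5% and 25.3% of all ORFs. At 72 h, 12 (9.92%) were higher and 34 (28.1%) lower, against 16.5% and 17.3%. By SAM, the test of the methods, at a median false discovery rate of at most 0.2%, the RP genes called were 30 higher at 24 h (all ORFs 7.46% higher, 1.91% lower), 10 higher at 48 h (2.22% and 0.0524%), and 2 higher and 4 lower at 72 h (4.59% and 1.58%).

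The call at 72 h depended on the slides. Replicates A, B and C alone gave 3 higher and 43 lower RP genes, where 470 of all ORFs were higher and 484 lower. D and E alone gave 14 higher and 1 lower RP genes, where 338 of all ORFs were higher and 176 lower. Below 0 on each of A, B and C were 78 of the 121 genes, against 34% of all ORFs, while 59 were above 0 on both D and E, against 39.4%. At 48 h, replicates A and B alone gave 40 higher and 3 lower RP genes, where 966 of all ORFs were higher and 917 lower. C, D and E alone gave 89 higher and 2 lower RP genes, where 1546 of all ORFs were higher and 1547 lower.

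Over the 3 time points, the most frequent course was a call higher at 24 and 48 h with no call at 72 h, which 43 RP genes took. Another 11 were higher at all 3 times (RPL11A, RPL15A, RPL15B, RPL25, RPL41A, RPL43A, RPS21A, RPS27A, RPS28B, RPS29B and RPS31), and 9 were higher at 24 and 48 h and lower at 72 h (RPL1B, RPL2B, RPL9A, RPL23A, RPL27B, RPS2, RPS4A, RPS13 and RPS17B). Above 0 on all slides were 10 RP genes, against 7.89% of all ORFs, and below 0 on all slides were RPL16A and RPS8A, against 8.97%. A call lower at 72 h only was found for 15, and 18 were not called at any time. These courses of calls were not counted over all ORFs, so the counts do not show which of them are particular to RP genes. When each time point counted as 1 value, the mean over the 3 was called higher for 22 RP genes (18.2%) and lower for 0, against 11.5% and 9.85% of all ORFs, and 41 had an unadjusted p under 0.05. This count was 12 without 72 h replicate D and 5 without 72 h replicate E, where 793 and 260 of all ORFs were called. It was 0 with 72 h replicates A to C alone or 48 h replicates C to E alone, where 0 and 1 of all ORFs were called. With all slides 1207 of all ORFs were called in either direction. SAM was not run on the mean over the time points.

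The drop of the ratio toward 72 h ran through most of the group. Between 24 and 72 h the median RP gene changed by -0.66 on the log2 scale, and 112 of 121 genes moved down. The limma contrast called 59 lower (48.8%) and 0 higher, against 9.16% and 5.17% of all ORFs. For 57 genes every 72 h slide lay below every 24 h slide, against 10.8% of all ORFs, and for 0 genes above every 24 h slide, against 8.49%.

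Between 48 and 72 h the median change was -0.77, with 91 genes called lower (75.2%) and 0 higher, against 16.3% and 13.9%. For 37 genes every 72 h slide lay below every 48 h slide, against 6.42% of all ORFs. Between 24 and 48 h the median change was 0.08, with 0 genes called in either direction by limma and 4 at an unadjusted p under 0.05, where 0.619% of all ORFs were called higher and 0.372% lower. The order of the genes was much the same at the first 2 times (Pearson r = 0.94, Spearman rho = 0.92 over 121 genes measured on slides of related pools) and less so between 24 and 72 h (r = 0.62, rho = 0.52).

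The number of RP genes called between 24 and 72 h depended on single slides, and so did that of all ORFs. It was 22 without 24 h replicate B and 28 without 24 h replicate D, where 164 and 226 of all ORFs were called. Without 72 h replicates A, B and C it was 32, 34 and 34, where 276, 277 and 288 of all ORFs were called. All these RP genes were lower, and with all slides 59 RP genes and 810 of all ORFs were called. With D and E as the only 72 h slides the RP count was 0 for both contrasts against 72 h, where 15 and 13 of all ORFs were called. With A to C alone it was 81 against 24 h (80 of them lower) and 97 against 48 h, where 1220 and 1755 of all ORFs were called. The 91 genes lower at 72 h than at 48 h became 6 with A and B as the only 48 h slides, where 98 of all ORFs were called in either direction, and 98 RP genes with C, D and E, and between 24 and 48 h C, D and E alone gave 2 genes called higher.

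**Figure D2:**
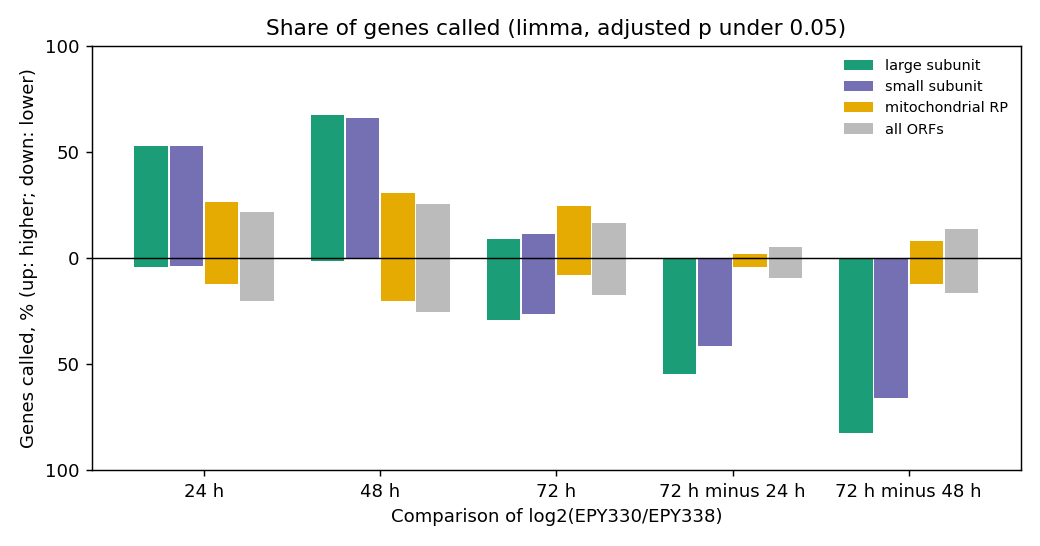
Share of genes called by limma at an adjusted p under 0.05 in each comparison, with genes higher in EPY330 (or with a higher ratio at the later time) above the zero line and lower ones below it, for 68 large subunit, 53 small subunit and 49 mitochondrial RP genes and all 5652 ORFs. Both subunits rise to over 50% higher at 24 and 48 h and have 0 genes called with a higher ratio at 72 h than earlier.

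At 24 h, 36 of 68 large subunit genes (52.9%) and 28 of 53 small subunit genes (52.8%) were higher, and at 48 h 46 (67.6%) and 35 (66.04%). At 72 h, 20 (29.4%) and 14 (26.4%) were lower. The large subunit median minus the small subunit median was -0.002 ± 0.16, -0.04 ± 0.06 and -0.13 ± 0.08 in order of time (SD between 4, 5 and 5 slides).

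On single slides this difference ran from -0.12 to 0.26 at 24 h, from -0.06 to 0.10 at 48 h and from -0.16 to 0.03 at 72 h. It had both signs at each time, with the large subunit below the small on 4 of the 5 slides of 72 h. Between 24 and 72 h, 37 large subunit genes (54.4%) and 22 small subunit genes (41.5%) were called lower, and between 48 and 72 h 56 (82.4%) and 35 (66.04%). Median changes between 24 and 72 h were -0.72 and -0.58. The difference between subunits was not tested.

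Within the large subunit, RPL41A (YDL184C), which encodes the smallest ribosomal protein, was among the 3 highest RP genes at every time. Its log2 ratios were 1.73, 1.78, 2.12 and 1.43 at 24 h, 2.0, 2.25, 1.79, 1.89 and 2.24 at 48 h, and 0.74, 1.03, 0.83, 1.49 and 1.78 at 72 h. It was above 0 on every slide, and its 72 h values overlapped those of 24 h. The means were 1.76 ± 0.28 (SD, n = 4), 2.03 ± 0.21 (n = 5) and 1.17 ± 0.45 (n = 5), or 3.40-fold, 4.09-fold and 2.26-fold, with limma adjusted p of 7.3e-07, 2.9e-08 and 3.9e-05. Its difference between 72 and 24 h was -0.59 ± 0.22 (SE, adjusted p = 0.075).

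RPL15B (YMR121C) encodes a large subunit protein bound to 25S rRNA and had the highest mean at 24 h. Its values were 1.54, 1.82, 2.35 and 1.99 at 24 h, 1.12, 1.58, 1.71, 2.20 and 2.24 at 48 h, and 0.52, 0.87, 0.80, 1.42 and 1.53 at 72 h. Of its 72 h slides, only D and E reached into the range of 48 h, and none reached that of 24 h. The means were 1.93 ± 0.34 (3.80-fold), 1.77 ± 0.47 (3.41-fold) and 1.03 ± 0.43 (2.04-fold), all called (adjusted p = 2.1e-06, 7.5e-07 and 0.000405). RPL43A, the third highest gene at 72 h, was above 0 on every slide, with means of 1.33 ± 0.22, 1.35 ± 0.13 and 0.85 ± 0.51.

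Rpl5 and Rpl11 bind 5S rRNA and enter the large subunit with it as 1 particle. All 3 of their genes were called higher in EPY330 at 24 and 48 h, where 52.9% and 66.9% of all RP genes were. RPL11A (YPR102C) had values of 1.66, 1.63, 1.84 and 1.88 at 24 h, 1.39, 1.58, 1.79, 2.11 and 1.33 at 48 h, and 0.57, 0.23, -0.07, 1.17 and 1.18 at 72 h. Its 72 h slides lay below all the earlier ones, and the change between 24 and 72 h was -1.14 ± 0.25 (SE, adjusted p = 0.010). RPL11B had means of 0.97, 1.30 and 0.34, and RPL5 of 0.86, 0.81 and -0.25, with RPL5 falling by 1.11 between 24 and 72 h (adjusted p = 0.00425).

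The polypeptide exit tunnel and its rim are formed by proteins of 13 genes in the table. Of these, 7 (53.8%) were higher at 24 h and 8 (61.5%) at 48 h with 0 lower at either time, and at 72 h 1 was higher and 4 (30.8%) lower, shares close to the 52.9%, 66.9% and 28.1% of all RP genes. All 13 were called lower at 72 h than at 48 h, where 75.2% of all RP genes were. RPL25, whose product sits at the tunnel exit where the signal recognition particle docks, was called higher at every time, with means of 1.31 ± 0.20, 1.19 ± 0.27 and 0.45 ± 0.50 (adjusted p = 2.5e-05, 9.65e-06 and 0.031), and its 72 h slides were 0.07, 0.39, -0.11, 0.99 and 0.93. Its call at 72 h was lost without replicate B, D or E and with A to C alone (mean 0.12, adjusted p = 0.64).

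RPL4B (YDR012W), which encodes a protein of the tunnel wall, had the lowest mean of the group at 72 h. Its values were 0.02, 0.34, 0.07 and 0.33 at 24 h, -0.28, -0.57, 0.26, 0.14 and 0.36 at 48 h, and -1.78, -1.51, -1.07, -0.20 and -0.54 at 72 h. Neither early time was called, and all 72 h slides were below 0, D and E the least. The 72 h mean of -1.02 ± 0.65 (0.49-fold, n = 5) was called lower (adjusted p = 7.9e-04), and the change between 24 and 72 h was -1.21 ± 0.28 (SE, adjusted p = 0.013).

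RPL1A (YPL220W), for the stalk beside the tRNA exit site, had the largest change between 24 and 72 h, -1.59 ± 0.36 (SE, adjusted p = 0.011). Its slides read 0.68, 1.63, 1.32 and 1.12 at 24 h, 0.58, 2.21, 0.96, 1.95 and 0.84 at 48 h, and -0.77, -1.17, -0.61, 0.16 and 0.37 at 72 h. Each 72 h slide was below each earlier one, but the time point itself was not called (mean -0.40 ± 0.65, adjusted p = 0.19).

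RPL2B (YIL018W), for a protein near the peptidyl transferase centre, followed with -1.54 ± 0.30 (SE, adjusted p = 0.0069). Its values were 0.42, 0.99, 0.74 and 1.42 at 24 h, -0.07, 0.17, 0.84, 0.76 and 0.86 at 48 h, and -1.01, -1.20, -1.10, -0.20 and 0.27 at 72 h. Its 72 h mean of -0.65 was called lower (adjusted p = 0.022), and was 0.03 from D and E alone. RPL3, which also reaches that centre, had means of 0.72, 0.52 and -0.33, and RPL10, which joins the subunit last in the cytosol, 0.78, 0.91 and -0.01.

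Mutations in Rpl28 and Rpl42 make yeast resistant to cycloheximide. RPL42A (YNL162W) gave 1.20, 1.53, 1.39 and 1.79 at 24 h, 1.26, 1.46, 1.32, 2.05 and 2.09 at 48 h, and 0.22, -0.01, -0.33, 0.73 and 0.63 at 72 h. Its 72 h slides lay below every earlier slide, a change of -1.23 ± 0.24 (SE, adjusted p = 0.0066) between 24 and 72 h. RPL28 had means of 0.62, 0.74 and -0.53, of which only the 48 h value was called (adjusted p = 0.011). RPL32, a single-copy gene, was higher at 24 h (1.68 ± 0.37, 3.21-fold) and 48 h (1.62 ± 0.52, 3.08-fold) and not called at 72 h (0.32 ± 0.52).

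**Figure D3:**
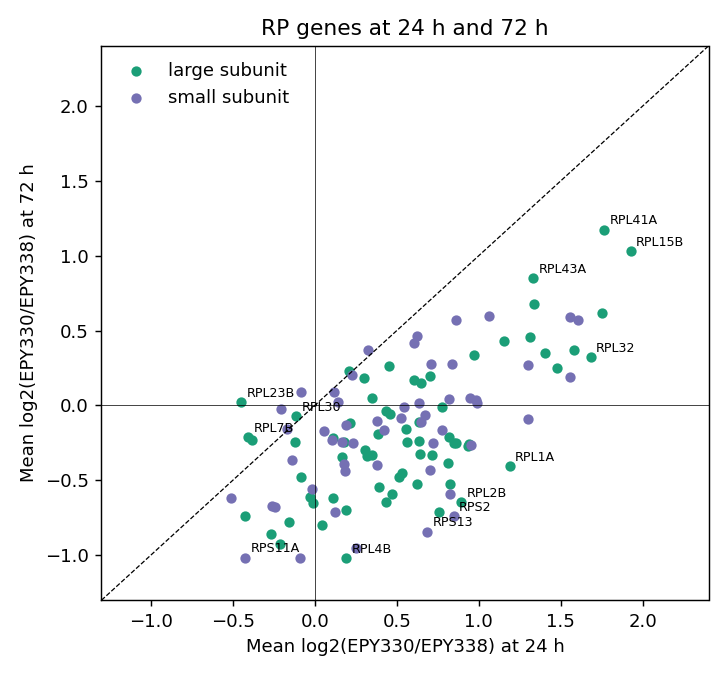
Mean log2(EPY330/EPY338) at 24 h (horizontal) and 72 h (vertical) of the 121 RP genes, coloured by subunit, with the line of equal values dashed. All but 9 genes lie below the line, with RPL41A and RPL15B at the upper right and RPL1A, RPL2B and RPS2 farthest below it.

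Within the small subunit, RPS29B (YDL061C), for a small zinc-binding protein of the head, had the highest mean of the group at 48 h. Its slides read 1.09, 2.13, 1.63 and 1.56 at 24 h, 0.94, 2.64, 2.11, 2.74 and 2.13 at 48 h, and 0.17, 0.10, 0.70, 0.72 and 1.17 at 72 h. All 14 were above 0, with 48 h replicate A below the other 48 h slides. The means were 1.60 ± 0.43, 2.11 ± 0.72 (4.32-fold) and 0.57 ± 0.44. RPS15, whose protein is needed for export of the small subunit precursor from the nucleus, was higher at 24 h (1.30 ± 0.19) and 48 h (1.36 ± 0.48) and not called at 72 h (0.27 ± 0.27).

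Of the 7 genes tested for proteins around the mRNA exit (RPS1A, RPS1B, RPS14B, RPS26A, RPS26B, RPS28A and RPS28B), 6 (85.7%) were higher at 24 h and all 7 at 48 h, where 52.9% and 66.9% of all RP genes were, and 1 (14.3%) was higher and 0 lower at 72 h. RPS28B was the one, with means of 1.56, 1.63 and 0.59. Of the 3 genes tested for the mRNA entry side, 1 (33.3%) was higher at 24 h and all 3 at 48 h. At 72 h RPS2 and RPS3 of these were lower, where 28.1% of all RP genes and 17.3% of all ORFs were. The sides were not tested against each other or against the other RP genes.

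RPS2 (YGL123W) had values of 0.84, 0.87, 0.79 and 0.89 at 24 h, which were close together, 0.21, 0.60, 1.49, 1.37 and 0.90 at 48 h, and -1.14, -1.16, -1.26, -0.14 and 0.00 at 72 h. It went from 1.80-fold higher at 24 h to 0.60-fold at 72 h, each called (adjusted p = 0.0047 and 0.0083), a change of -1.59 ± 0.29 (SE, adjusted p = 0.0040). RPS13, for a protein that binds the central domain of 18S rRNA, changed almost as much, by -1.53 ± 0.23 (SE, adjusted p = 0.0010). RPS31, 1 of the 2 ubiquitin fusion genes tested, was above 0 on every slide and higher at all times (means 1.06, 1.11 and 0.60), while the other, RPL40B, was called only at 48 h.

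**Figure D4:**
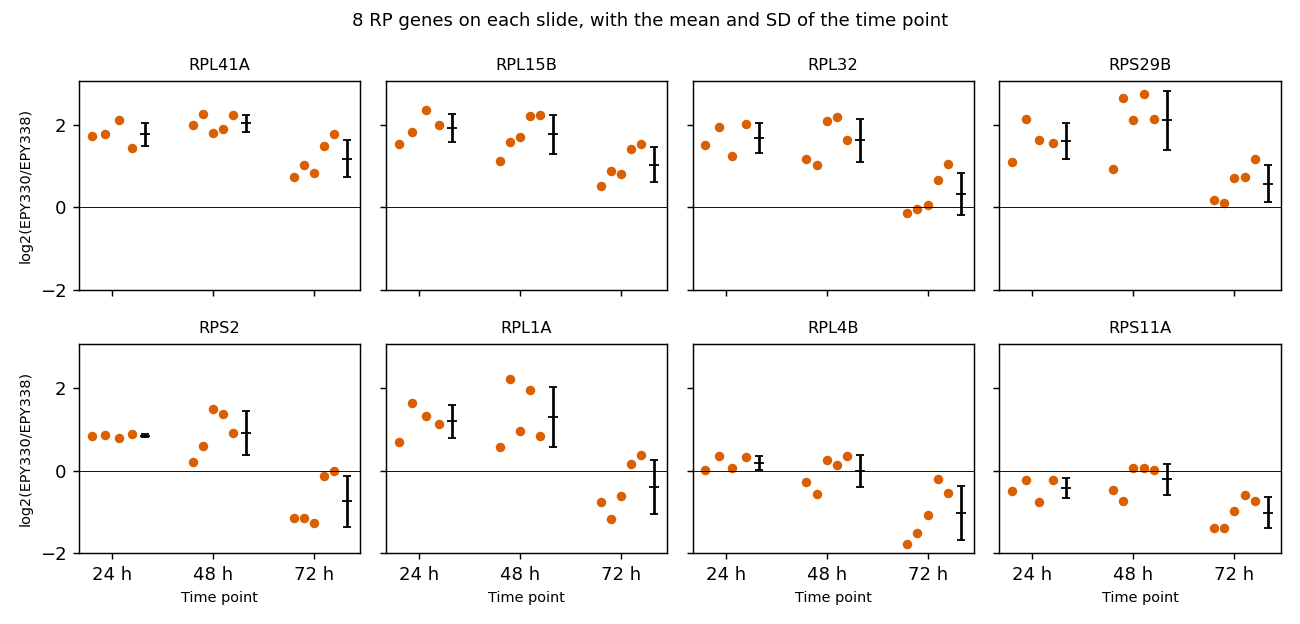
Log2(EPY330/EPY338) of 8 RP genes on each slide (points, in the order of the replicate letters), with the mean and SD of each time point beside them. RPL41A, RPL15B and RPS29B stay above 0 on all slides, RPL32 reaches about 0 on 72 h replicates A, B and C, RPS2 and RPL1A fall below 0 there, and RPL4B and RPS11A are below 0 on every 72 h slide.

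A few RP genes were lower in EPY330 from the start. RPS21B, whose protein takes part in the last steps of small subunit maturation, had the lowest mean at 24 h, with slides of -0.48, -0.43, -0.72 and -0.41. It was -0.40, -0.63, -0.14, -0.35 and 0.27 at 48 h and -0.38, -0.73, -1.04, -0.36 and -0.58 at 72 h. RPS21B was called lower at 24 h (-0.51 ± 0.14, adjusted p = 0.0095) and 72 h (-0.62 ± 0.28, adjusted p = 0.0021), and only 1 of its 14 slides was above 0.

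RPL16A was called lower at the same 2 times, with means of -0.42, -0.21 and -0.74, and was below 0 on all slides. RPS11A (YDR025W), for a protein that binds 18S rRNA early in assembly, had values of -0.48, -0.24, -0.75 and -0.23 at 24 h, -0.46, -0.75, 0.07, 0.05 and 0.01 at 48 h, and -1.39, -1.39, -0.98, -0.60 and -0.73 at 72 h. Its 72 h mean of -1.02 ± 0.37 (0.49-fold) was called (adjusted p = 1.4e-04). Its 24 h mean of -0.42 (adjusted p = 0.048) became 0.07 once values were taken relative to ORFs at neighbouring places in the name order. Its partner RPS11B was called lower at 72 h alone (-1.02 ± 0.37), and RPL34B likewise (-0.86 ± 0.26).

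RPL7B was the only RP gene called lower at 48 h (-0.34 ± 0.18, adjusted p = 0.029), and was also called at 24 h (-0.40 ± 0.04, adjusted p = 0.026), both lost without single slides. RPL23B was lower at 24 h (-0.45 ± 0.17, adjusted p = 0.013) and had the largest upward change to 72 h in the group, 0.47 ± 0.18 (SE), which was not called (adjusted p = 0.084). RPL7B and RPS9B, for a protein that affects the fidelity of decoding, came next, at 0.19 and 0.18. RPL30, whose protein restrains the splicing of its own transcript, was called at no time (means -0.11, -0.13 and -0.07).

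Of the 4 genes below the minimum number of slides, RPL16B had a mean of -0.47 on 4 slides of 24 h and -0.41 on 3 of 72 h. RPL40A gave -0.76 on 2 slides, -0.05 on 3 and -0.23 on 4, RPS30A gave -0.29 on 2 slides of 24 h and 0.19 on 3 of 72 h, and RPL43B gave -0.21 on 2 slides of 24 h. None of them was tested.

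Both genes could be compared in 47 A and B pairs, 26 of the large and 21 of the small subunit. A had the higher mean in 24 pairs and B in 23, and the median A minus B was 0.03. The size of the difference had a median of 0.29, was under 0.25 in 18 pairs and over 1 in 3. Over the pairs, the A and B values correlated at r of 0.38, 0.42 and 0.36 at 24, 48 and 72 h (Spearman rho 0.39, 0.44 and 0.33, 47 pairs on the same slides), and their changes between 24 and 72 h at 0.49 (rho 0.53).

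The differences of single pairs were mostly not stable between slides. A exceeded B on every slide in 5 pairs (RPL4, RPL17, RPL20, RPL42 and RPS21) and B exceeded A in 3 (RPL15, RPL19 and RPS10). These 8 pairs were picked out after their values were seen, and their differences have no test, since a dye effect or unequal capture of a shared sequence would give the same.

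RPS21 had the largest difference, with A minus B of 1.40 ± 0.48, 1.32 ± 0.58 and 1.19 ± 0.43 at the 3 times and a range of 0.49 to 1.85 over 12 slides. RPS21A was called higher at all times and RPS21B lower at 24 and 72 h. At 24 h RPS21 and RPL23 were the 2 pairs with opposite calls. RPL42 followed with 1.37 ± 0.16, 1.51 ± 0.29 and 0.87 ± 0.22, where RPL42B had means of 0.11, 0.12 and -0.62. In RPL20 the difference was 1.41 ± 0.24, 1.22 ± 0.24 and 0.72 ± 0.44, with RPL20A 2.99-fold and RPL20B 1.12-fold higher in EPY330 at 24 h.

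The other pairs among the 5 largest favoured B. RPL13A minus RPL13B was -1.02 ± 0.44, -0.56 ± 0.72 and -0.89 ± 0.18, with B higher on 13 of 14 slides, and RPS29A minus RPS29B was -0.76 ± 0.49, -1.36 ± 0.98 and -0.29 ± 0.35, with B higher on 12. RPS27, RPS0 and RPL24 were the closest, with mean differences of -0.01, 0.03 and -0.04. For RPS27 this was an average over changing values, since A minus B went from -0.38 ± 0.51 at 24 h to 0.38 ± 0.41 at 72 h. Both RPS0 genes, for a protein needed for the last cleavage of 18S rRNA, were called at no time.

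The calls of the 2 copies overlapped in part. At 24 h both were called higher in 15 pairs, only A in 10, only B in 7 and neither in 15, and at 48 h these numbers were 23, 11, 3 and 10. At 72 h both were called lower in 5 pairs, only A in 8, only B in 11 and neither in 23. Between 48 and 72 h both copies were called lower in 29 pairs, only A in 7, only B in 5 and neither in 6. These counts were not compared with the overlap that the separate call rates of A and B would give. They therefore do not show whether the 2 copies were called together more often than by chance.

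**Figure D5:**
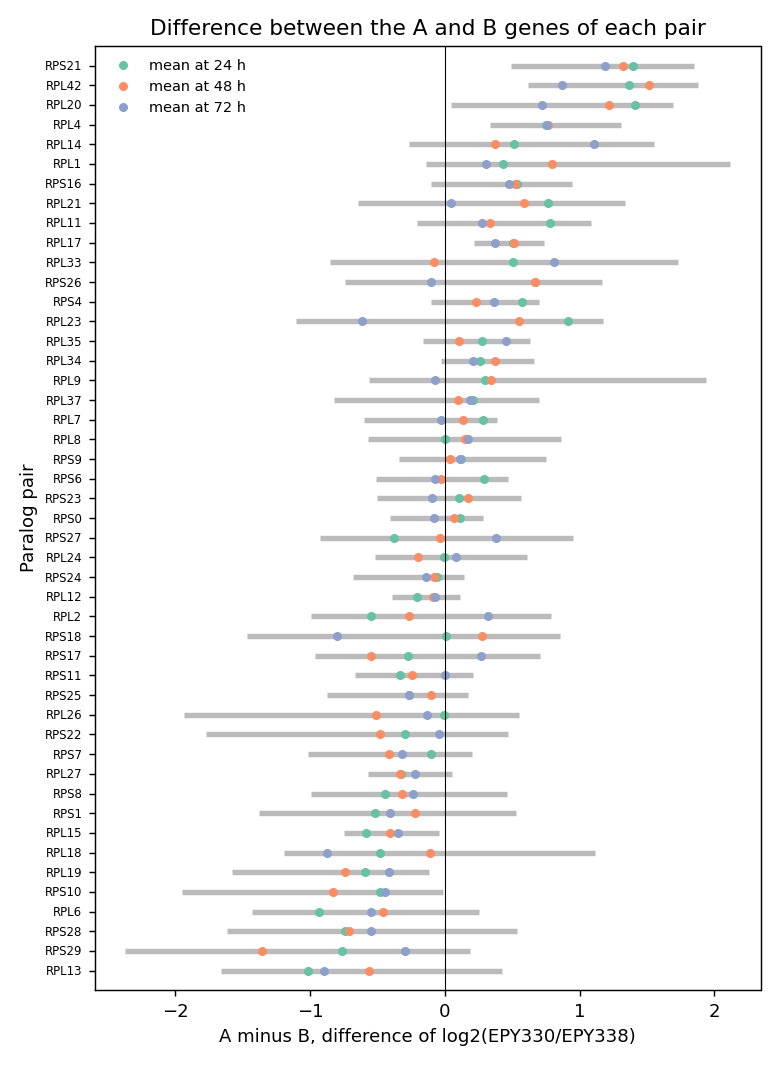
A minus B, the difference of log2(EPY330/EPY338) between the paralogs of each of the 47 pairs, with the mean at 24, 48 and 72 h as points and the range over all slides as a grey bar. The bars of RPS21, RPL42, RPL20, RPL4 and RPL17 lie wholly above 0 and those of RPL15, RPL19 and RPS10 wholly below it, while the others cross it.

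Of the 17 RP genes with no paralog name, 14 (82.4%) were higher at 24 h, against 50 (48.1%) of the 104 with one, at 48 h 16 (94.1%) against 65 (62.5%), and between 24 and 72 h 13 (76.5%) were lower against 46 (44.2%). At 72 h, 2 (11.8%) of the 17 were higher and 3 (17.6%) lower, against 10 (9.62%) and 31 (29.8%). Their medians were 0.85, 0.88 and -0.05 at the 3 times, against 0.43, 0.51 and -0.21. RPL30 was the only single-copy gene not called at 48 h. The division was noticed in the data and was not tested.

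In the R64 gene order, the table held 7 pairs of neighbouring RP genes. RPL13B and RPS16A had 24 h means of 1.41 and 0.52, and their paralogs RPL13A and RPS16B, which also lie side by side, 0.39 and -0.01. RPL24A and RPL30 had 0.56 and -0.11, and RPS19B and RPL18B 0.33 and 0.45.

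The stalk proteins, which recruit elongation factors, and Asc1 of the 40S head fall outside the name rule. All 5 tested were higher at 24 h (median 1.38) and at 48 h (1.05), where 52.9% and 66.9% of the RP genes were. All 5 were called lower at 72 h than at 24 h, where 48.8% of the RP genes were. RPP1A had means of 1.45 ± 0.40, 1.58 ± 0.33 and 0.65 ± 0.47, RPP2B 1.38 ± 0.33, 1.05 ± 0.52 and 0.43 ± 0.41, and ASC1 1.42 ± 0.12, 1.08 ± 0.21 and 0.27 ± 0.53.

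A list made for translation initiation and elongation held 34 genes, not all of them for factors of these steps (GCN4, SUP35, SUP45 and TIF6 among them). Of the 34, 16 (47.1%), 18 (52.9%) and 5 (14.7%) were higher at the 3 times, against 21.7%, 25.5% and 16.5% of all ORFs. At 72 h 8 (23.5%) were lower, against 17.3%, and 0 at the earlier times. TIF11 (eIF1A) had means of 1.36, 1.85 and 0.69, TIF34, a subunit of eIF3, 1.38, 1.52 and 0.80, and SUI1 (eIF1) 1.23, 1.72 and 0.59, each called at every time. Of 14 chaperones that escort new ribosomal proteins or nascent chains, 4 (28.6%) were higher at 24 h and 5 (35.7%) at 48 h with 1 lower at each, against 21.7% and 25.5% of all ORFs higher. EGD2, a subunit of the nascent polypeptide-associated complex, was called at all times (0.39, 0.52 and 0.36), and YAR1, the chaperone of Rps3 (0.54 and 0.50), and SSB2, a ribosome-bound Hsp70 (0.47 and 0.50), at the first 2.

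Of 19 genes for factors and kinases that control RP transcription, 4 (21.1%) were higher and 5 (26.3%) lower at 24 h, against 21.7% and 20.2% of all ORFs. At 48 h 6 (31.6%) were higher and 6 lower, against 25.5% and 25.3%, and at 72 h 1 (5.26%) and 3 (15.8%), against 16.5% and 17.3%. TOR1 was higher at all times (0.97, 0.85 and 0.74), and ABF1 (-0.93, -0.60 and -0.45) and STB3 (-0.61, -0.61 and -0.64) were lower at all times. SFP1 was not picked by the rule for named genes and had 0.52, 0.35 and -0.14, with a drop to 72 h that was called (limma adjusted p = 0.017). Other members outside that rule went in both directions. CRF1 (0.61, 0.70 and -0.02) and DOT6 (0.60, 0.49 and 0.10) were called higher at 24 and 48 h. The drop of CRF1 to 72 h was also called (limma adjusted p = 0.037). SCH9 was called lower at all times (-0.56, -0.51 and -0.67), and FHL1 (-0.43, -0.28 and -0.27) at 24 h only. IFH1 (0.16, 0.55 and -0.04) was called higher and RAP1 (0.08, -0.25 and 0.12) lower, each at 48 h only. Whether any of these genes bore on the RP mRNAs was not tested.

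For RNA polymerase I and its factors, which make the large ribosomal RNA, 0 of 13 genes were higher and 4 (30.8%) lower at 24 h, and 0 and 6 (46.2%) at 48 h, where 20.2% and 25.3% of all ORFs were lower. At 72 h 2 (15.4%) were higher and 3 (23.1%) lower, against 16.5% and 17.3%. RRN3 (-0.47, -0.72 and -0.23), RRN7 (-0.68, -0.81 and 0.14) and UAF30 (-0.62, -0.85 and -0.45) were lower at both early times. The 49 mitochondrial RP genes tested, which encode the ribosome of the organelle, had medians of 0.22, 0.11 and 0.12. Between 24 and 72 h, 2 of them (4.08%) were called lower and 1 (2.04%) higher, against 9.16% and 5.17% of all ORFs.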

How the data were processed

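RNA of both strains was reverse transcribed, labelled with Alexa dyes and hybridised to double-spotted yeast ORF arrays. The authors scanned the slides with GenePix Pro, normalized each by lowess in BRB-ArrayTools and deposited 1 log2 ratio of EPY338 over EPY330 per ORF and slide. The sign was turned here. ORFs were named through RefSeq R64 (5546 matched). No intensities were used, so signal over background is unknown, and precision depends on how many slides there are.

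ORFs with at least 3 slides at each of 24, 48 and 72 h were fitted with limma over all 14 slides with time point as group (two-sided, Benjamini-Hochberg over 5652 ORFs). limma replaced SAM, the test of the methods, as the main test, and SAM was kept as an alternative. At 24, 48 and 72 h SAM called 30, 10 and 6 RP genes, where limma called 69, 82 and 46. The scripts were tested on simulated data. Versions used were R 4.3.3, limma 3.58.1 and Python 3.11.15.

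The members, gene lists and tests were chosen with earlier results of these data known. The rule for named genes took the 3 highest and 3 lowest RP genes at each time, the 5 most and 3 least different pairs, the 3 largest rises and falls, up to 5 genes without a partner in the table and up to 3 genes of each other list. Genes described by role beyond that rule were chosen after their values were seen. 1 gene that the rule named is not reported here.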

Additional observations from a re-analysis of the deposited data

Results flagged for a closer look

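The effect of strain on the RP genes differed between time points, by the limma contrasts of the times. The ratio was lower at 72 h than at 24 h for 59 RP genes (all ORFs 9.16%) and lower at 72 h than at 48 h for 91 (all ORFs 16.3%). Both counts were 0 with 72 h replicates D and E alone, where 15 and 13 of all ORFs were called in either direction. The 59 became 22 without 24 h replicate B (all ORFs 164). The 91 became 6 with 48 h replicates A and B alone (all ORFs 98). The 3 largest falls between 24 and 72 h, all called, were those of RPL1A (-1.59), RPS2 (-1.59) and RPL2B (-1.54).

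Single slides far from the rest of their time point were looked for in 107 groups of 4 or 5 slides, the RP medians, the subunit differences and the 34 named RP genes at each time. None was found by the gap test, although chance alone would mark about 5% of groups. That test looks for 1 slide apart and cannot see 2, such as 72 h replicates D and E.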

How the results depend on the processing

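Removing the trend along ORF names, centring slides, keeping only ORFs with all 14 values, or fitting a time point alone left the counts of called RP genes within 1.5 times, and the RP medians within 1 SD. SAM at a median FDR of 0.2% called 30, 10 and 6 RP genes at 24, 48 and 72 h. An adjusted p of at most 0.01 left 27 at 72 h, 14 for 72 h minus 24 h and 55 for 72 h minus 48 h. For the mean over the time points it left 0 RP genes and 0 of all ORFs. The median of the slides gave 5 for the mean over the time points, where 258 of all ORFs were called.

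Leaving out 1 slide gave 54 to 78 called genes at 24 h, 70 to 86 at 48 h, 31 to 52 at 72 h, 5 to 27 for the mean over the time points, 22 to 76 for 72 h minus 24 h and 70 to 96 for 72 h minus 48 h. The large minus small subunit median ran from -0.10 to 0.09 at 24 h, -0.0249 to 0.0362 at 48 h and -0.14 to -0.09 at 72 h, and the RP median from 0.47 to 0.55, 0.48 to 0.64 and -0.26 to -0.14. With the trend removed the subunit difference was 0.0909 at 48 h and -0.0519 at 72 h, and the median over slides made it 0.0634 at 48 h.

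Chosen after seeing the data, 72 h replicates D and E alone gave an RP median of 0.0826, a subunit difference of 0.0267, 15 called genes at 72 h, 62 for the mean over the time points and 0 for either contrast with 72 h, and RPL2B at 72 h was 0.0343. Replicates A to C alone gave 0 for the mean over the time points, where 0 of all ORFs were called. The 48 h replicates A and B alone gave an RP median of 0.3268, 43 called genes at 48 h, 34 for the mean over the time points and 6 for 72 h minus 48 h, and RPL13A at 48 h was -0.005. Replicates C, D and E of 48 h alone gave a subunit difference of 0.0539, 0 for the mean over the time points (all ORFs 1) and 2 for 48 h minus 24 h. RPS11A at 24 h was 0.0677 with the trend removed. The cause was not tested.

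The deviations of slides with the same letter correlated at -0.53 to 0.63 between 24 and 48 h and at -0.20 to 0.20 between 24 and 72 h. Between 48 and 72 h they correlated at -0.23 to 0.37. These values have both signs and do not show whether the letters pair slides. With the letter as a replicate block, 72 RP genes were called for 72 h minus 24 h, 90 for 72 h minus 48 h and 0 for 48 h minus 24 h. Of 112 calls of named RP genes, 38 held under every limma alternative: 18 of 24 at 24 h, 17 of 24 at 48 h, 3 of 18 at 72 h (RPL15B, RPL41A and RPL43A) and 0 of 46 between time points.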
